A study of Mus musculus with 8 samples.

Results

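A set of 10 genes that pass costimulatory or inhibitory signals between myeloid cells and T cells was followed in sorted myeloid cells of sanroque mice. They are *Cd274*, *Pdcd1lg2*, *Cd80*, *Cd86*, *Icosl*, *Cd40*, *Vsir*, *Lgals9*, *Havcr2* and *Cd276*, taken as the rows of the count table with these symbols, and they make up 10 of its 54188 genes. Most encode ligands, but *Cd40* encodes the receptor of CD40 ligand and *Havcr2* encodes TIM-3, a receptor of galectin-9. RNA came from CD11b+Gr-1hi cells (written CD11+Gr-1hi and G-MDSC in the labels) and CD11b+Gr-1lo cells (CD11+Gr-1low, M-MDSC) of bone marrow (BM) and spleen (SP), with 2 libraries for each of the 4 groups. All mice carried the homozygous Roquin(san/san) genotype, which gives a lupus-like disease, on a C57BL/6 background, were labelled female and were about 20 weeks old. No wild-type group was analysed here, so the comparisons are between tissues and between subsets within sanroque mice. Libraries 5 and 6 are SP Gr-1hi, 7 and 8 SP Gr-1lo, 9 and 10 BM Gr-1hi, and 11 and 12 BM Gr-1lo. Which libraries share a mouse is not stated in the labels. The study describes the libraries of a group as independent biological replicates.

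A T cell that recognizes antigen also reads a second layer of signals from the presenting cell. CD80 and CD86 bind CD28, which raises activation, and CTLA-4, which dampens it, whereas ICOSL binds ICOS and favours follicular helper T cells. PD-L1 (*Cd274*) and PD-L2 (*Pdcd1lg2*) bind the inhibitory receptor PD-1. VISTA (*Vsir*) and galectin-9 (*Lgals9*) also restrain T cells, and CD40 receives the signal of activated helper T cells in B cells and myeloid cells.

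*Cd274* (chr19:29367455-29388095, plus strand, GRCm38) and *Pdcd1lg2* (chr19:29410919-29471161, plus strand) are neighbours, 22823 bases apart with 0 annotated genes between them. Promoters of 8 of the 10 genes, from 250 bases before to 50 bases after the start site, were matched in RefSeq (GRCm38.p6). They were searched on both strands for the core of the interferon-stimulated response element, 2 copies of GAAA with any 2 bases between them, found in 3.44% of 32851 promoters and for the NF-kB motif, found in 4.51%. *Cd274* and *Pdcd1lg2* are shown because both encode PD-1 ligands and lie side by side, and *Lgals9* because it held matches to the interferon element. Capitals mark the matches, which did not overlap each other.
Cd274 (chr19:29367188-29367487, plus strand): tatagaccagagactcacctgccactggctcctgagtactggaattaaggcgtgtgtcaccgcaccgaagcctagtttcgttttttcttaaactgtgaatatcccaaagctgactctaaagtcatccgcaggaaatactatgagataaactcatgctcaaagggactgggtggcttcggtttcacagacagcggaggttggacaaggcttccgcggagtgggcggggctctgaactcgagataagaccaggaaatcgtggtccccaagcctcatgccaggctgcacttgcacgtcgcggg
Pdcd1lg2 (chr19:29410669-29410968, plus strand): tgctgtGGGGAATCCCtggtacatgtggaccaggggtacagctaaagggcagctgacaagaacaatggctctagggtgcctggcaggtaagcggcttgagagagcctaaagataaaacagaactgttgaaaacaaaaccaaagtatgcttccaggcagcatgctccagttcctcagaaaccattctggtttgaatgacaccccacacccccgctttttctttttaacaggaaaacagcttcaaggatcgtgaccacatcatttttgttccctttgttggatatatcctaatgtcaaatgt
Lgals9 (chr11:78984875-78985174, minus strand): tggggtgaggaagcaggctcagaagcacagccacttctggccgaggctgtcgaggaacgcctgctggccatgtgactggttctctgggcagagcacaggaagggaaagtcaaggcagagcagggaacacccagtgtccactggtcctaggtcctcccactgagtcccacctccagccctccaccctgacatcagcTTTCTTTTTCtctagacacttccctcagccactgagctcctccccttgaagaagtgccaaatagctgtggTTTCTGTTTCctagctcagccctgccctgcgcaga
The *Pdcd1lg2* promoter held 1 NF-kB match, from base -244 to base -235 of the start site. The *Lgals9* promoter held 2 matches to the interferon element, from base -55 to -46 and from base 16 to 25. In the windows of *Cd274*, *Cd80*, *Icosl*, *Vsir*, *Havcr2* and *Cd276* neither motif was found. *Cd40* and *Cd86* were not matched.

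The libraries held 33453580 to 68316154 counts each. Levels are given as counts scaled by library size (CPM), on which 3 counts, the limit for a gene read at 0, equal 0.0348 to 0.124 CPM, counting error alone considered. Neutrophil markers summed to 85565 to 165284 CPM in Gr-1hi libraries and to 4851 to 12019 CPM in Gr-1lo libraries, and monocyte markers to 1057 to 1756 and 6583 to 9942 CPM. Library 5 held 12032 counts of *Xist* and 0 of *Ddx3y*, a gene of the Y chromosome. Library 7 held both, with 9898 and 1595 counts, and the other 6 libraries held 0 to 5 counts of *Xist* and 1725 to 4902 of *Ddx3y*. Thus 7 of the 8 libraries held RNA of a Y-linked gene although all were labelled female. By these counts library 5 shares no mouse with a BM library. Libraries 5 and 7, the only ones with more than 5 counts of *Xist*, are both SP. Sex is therefore partly confounded with tissue in the values of SP against BM. Results that change without libraries 5 and 7 are given below with both values.

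All 10 genes passed the filter on low counts, and they spanned about 4 orders of magnitude. Compared per length, as length-scaled TPM, *Vsir* had the highest mean level in every group, from 323 TPM in BM Gr-1lo to 602 TPM in BM Gr-1hi. *Lgals9* followed in 3 groups with 109 to 181 TPM, and *Cd274* passed it in SP Gr-1hi with 305 TPM against 161 TPM. *Cd276* was the lowest in every group, at 0.0410 to 0.444 TPM and *Pdcd1lg2* reached 0.137 to 0.776 TPM in the groups other than SP Gr-1hi.

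**Figure D1:**
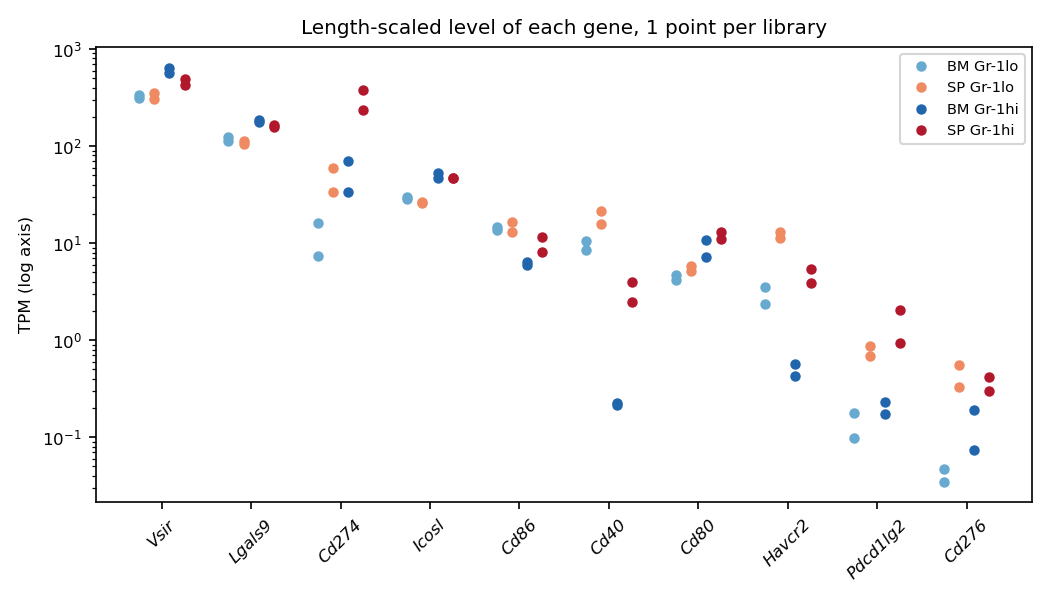
Level of each gene in TPM (log axis), with 1 point per library and colours for the 4 groups. *Vsir* lay above 300 TPM in every library, and *Cd40* fell lowest in BM Gr-1hi, near 0.222 TPM.

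For the PD-1 ligands, *Cd274* (ENSMUSG00000016496) was measured at 649 and 441 CPM in SP Gr-1hi, 40.6 and 74.8 CPM in SP Gr-1lo, 70.2 and 156 CPM in BM Gr-1hi, and 8.58 and 19.1 CPM in BM Gr-1lo. SP Gr-1hi libraries were the highest and BM Gr-1lo the lowest, and SP Gr-1lo and BM Gr-1hi overlapped. *Pdcd1lg2* (ENSMUSG00000016498) was scarce, with 64 and 30 counts (1.93 and 0.957 CPM) in SP Gr-1hi, 21 and 51 counts (0.443 and 0.591 CPM) in SP Gr-1lo, 7 and 5 counts (0.262 and 0.206 CPM) in BM Gr-1hi, and 3 and 6 counts (0.0615 and 0.113 CPM) in BM Gr-1lo. Its 4 groups did not overlap, and both SP groups lay above both BM groups. An antisense gene that overlaps *Pdcd1lg2*, *A930007I19Rik*, had 8 to 62 counts per library. The labels call the counts stranded, but the counter's setting is not given in the sources used here, so how far reads of such a pair were separated is not known.

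Of the CD28 and CTLA-4 ligands, *Cd80* (ENSMUSG00000075122, chr16:38455561-38496335, plus strand) stood at 19.7 and 24.7 CPM in SP Gr-1hi, 23.2 and 16.2 CPM in BM Gr-1hi, 6.40 and 7.50 CPM in SP Gr-1lo, and 4.96 and 5.76 CPM in BM Gr-1lo. Every Gr-1hi library was above every Gr-1lo library, and the Gr-1hi libraries of the tissues overlapped. *Cd86* (ENSMUSG00000022901, chr16:36603869-36666081, minus strand) was nearly level, at 20.3 and 15.5 CPM in SP Gr-1hi, 15.9 and 21.0 CPM in SP Gr-1lo, 12.8 and 14.3 CPM in BM Gr-1hi, and 17.3 and 16.3 CPM in BM Gr-1lo. Its BM Gr-1hi libraries were the lowest and the other 3 groups overlapped.

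*Icosl* (ENSMUSG00000000732, chr10:78069302-78083913, plus strand) was read at 103 and 112 CPM in SP Gr-1hi, 141 and 133 CPM in BM Gr-1hi, 39.6 and 42.9 CPM in SP Gr-1lo, and 42.0 and 45.7 CPM in BM Gr-1lo. Its Gr-1hi libraries lay apart by tissue with BM on top, and its Gr-1lo libraries overlapped. *Cd40* (ENSMUSG00000017652, chr2:165055627-165072948, plus strand) ran the other way between the subsets, at 17.8 and 25.2 CPM in SP Gr-1lo, 9.40 and 11.7 CPM in BM Gr-1lo, 6.54 and 4.40 CPM in SP Gr-1hi, and 0.449 and 0.454 CPM in BM Gr-1hi. No groups overlapped for *Cd40*.

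Among the remaining inhibitory genes, *Vsir* (ENSMUSG00000020101, chr10:60346851-60372684, plus strand, within *Cdh23* on the other strand) reached 1875 and 1729 CPM in BM Gr-1hi and 1020 and 1278 CPM in SP Gr-1hi, against 584 and 533 CPM in SP Gr-1lo and 543 and 509 CPM in BM Gr-1lo. *Lgals9* (ENSMUSG00000001123, chr11:78962974-78984946, minus strand) was measured at 222 and 241 CPM in BM Gr-1hi, 167 and 176 CPM in SP Gr-1hi, 85.0 and 79.5 CPM in BM Gr-1lo, and 79.3 and 78.6 CPM in SP Gr-1lo. For both genes BM Gr-1hi was on top and SP Gr-1hi next. The Gr-1lo libraries of the tissues overlapped for *Vsir* and lay narrowly apart for *Lgals9*.

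*Havcr2* (ENSMUSG00000020399, chr11:46454935-46481255, plus strand) had 11.7 and 10.7 CPM in SP Gr-1lo, 6.99 and 5.49 CPM in SP Gr-1hi, 3.11 and 2.12 CPM in BM Gr-1lo, and 0.673 and 0.949 CPM in BM Gr-1hi. The 4 groups were apart, with both SP groups on top. *Cd276* (ENSMUSG00000035914, chr9:58524298-58555437, minus strand), which encodes the B7 family protein B7-H3, had only 24 and 18 counts in SP Gr-1hi, 19 and 61 in SP Gr-1lo, 11 and 4 in BM Gr-1hi, and 2 and 3 in BM Gr-1lo. In CPM these were 0.723 and 0.574, 0.401 and 0.707, 0.411 and 0.165, and 0.0410 and 0.0567, so that only BM Gr-1lo lay apart.

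**Figure D2:**
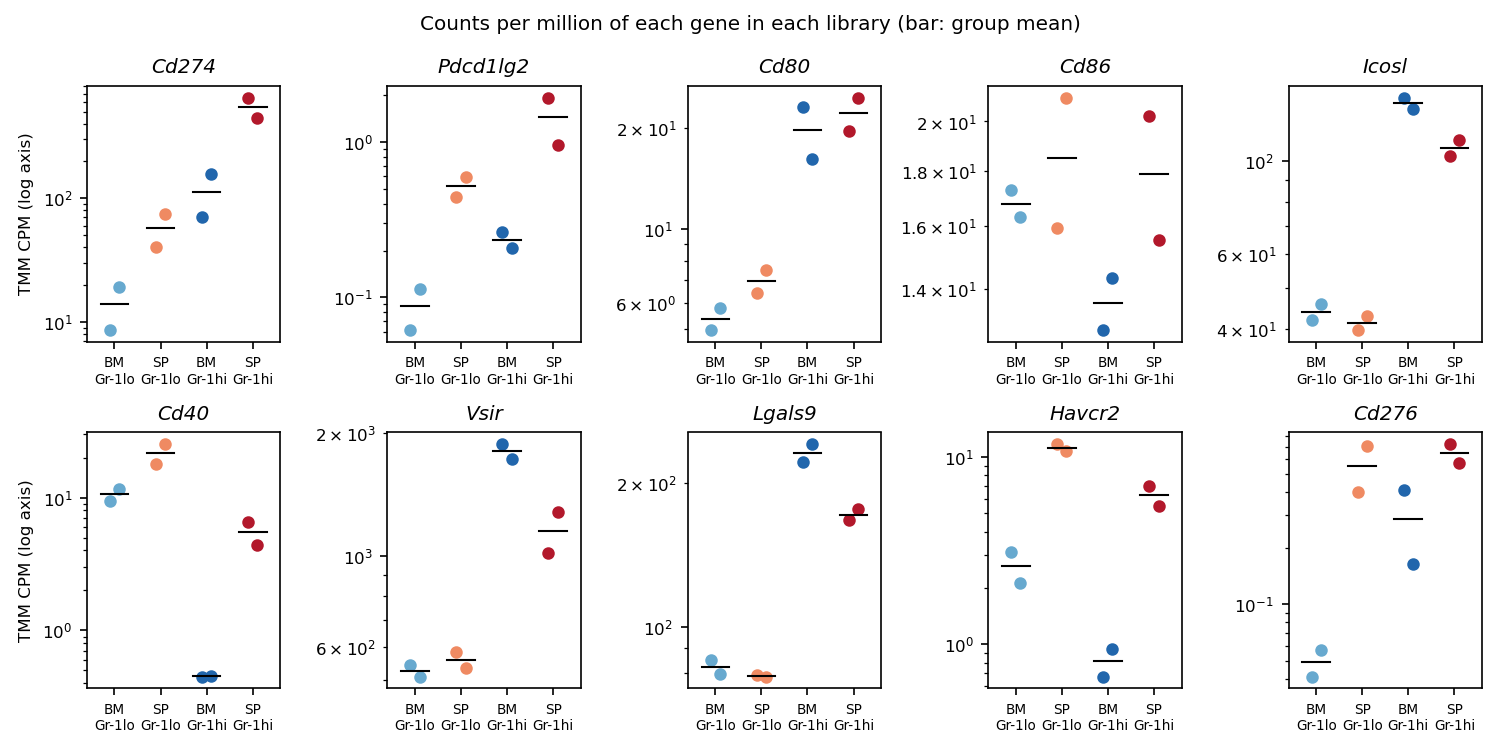
CPM of each gene after scaling by TMM, on log axes that differ between panels, with 1 point per library and a bar at the mean of each group of 2. *Cd80*, *Icosl*, *Vsir* and *Lgals9* separate by subset, both SP groups lie above both BM groups for *Pdcd1lg2* and *Havcr2*, and the 4 groups of *Cd40* are apart.

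The first question was how SP cells differ from BM cells of the same subset. In Gr-1lo cells 4 genes were higher in SP and 0 lower, with 5 higher and 0 lower at an unadjusted edgeR p of at most 0.05 and 4 and 0 called by DESeq2. Those called by edgeR were *Cd276*, *Pdcd1lg2*, *Havcr2* and *Cd40*. A gene was called at an adjusted p of at most 0.05 by the quasi-likelihood test of edgeR with Benjamini-Hochberg adjustment over 17650 genes and a fold change (FC) of at least 2. Of all genes tested, 4.06% were called, 3.84% as higher and 0.215% as lower. At the unadjusted p, 3545 of the 17650 genes passed in either direction. The median log2 FC of the 10 genes was 0.70, and that of all genes -0.01.

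*Havcr2* had a log2 FC of 2.10 (SE 0.23, n = 2 libraries per group, edgeR adjusted p = 0.00137) in Gr-1lo cells. *Cd276* had the largest value, 3.45 (SE 0.62, edgeR adjusted p = 0.0141), from 80 counts in SP and 5 in BM. For the scaled ratio of these pooled counts, a log2 of 3.61, the exact 95% counting interval ran from 2.32 to 5.27. This interval holds counting error alone and not the spread between libraries. *Pdcd1lg2* had a log2 FC of 2.53 (SE 0.55, edgeR adjusted p = 0.0334), with 72 counts in SP and 9 in BM. *Cd40* was close to both thresholds, at 1.03 (SE 0.22, edgeR adjusted p = 0.0325), and fell under the FC threshold at 0.97 with RLE scaling and by DESeq2. Among these calls, that of *Havcr2* held without each library in turn. Without library 8, 11 or 12 the edgeR adjusted p was 0.121, 0.108 or 0.104 for *Cd276*, 0.206, 0.192 or 0.132 for *Pdcd1lg2*, and 0.275, 0.197 or 0.103 for *Cd40*. Without library 7, 9 or 10 *Pdcd1lg2* was at 0.0680, 0.0559 and 0.0564, and without library 9 or 10 *Cd40* was at 0.0557 and 0.0564.

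*Cd274* differed as much in Gr-1lo cells, by a log2 FC of 2.06 (SE 0.58), without a call (edgeR adjusted p = 0.128). DESeq2 called it at an adjusted p of 0.0294, so that its 4 calls hold *Cd274* in place of *Cd40*. On quantile-normalized TPM, edgeR's exact test called *Cd274* (adjusted p = 0.00544) but not *Havcr2* (0.119) or *Cd40* (0.499). The other 5 genes differed little, from -0.09 for *Icosl* and -0.06 for *Lgals9* to 0.09 for *Vsir*, 0.14 for *Cd86* and 0.38 for *Cd80*, with edgeR adjusted p from 0.344 to 0.748.

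In Gr-1hi cells 4 genes were also higher in SP by edgeR, and 4 by DESeq2, where 15.5% of all genes were called, 14.0% as higher and 1.48% as lower. *Cd40* had a log2 FC of 3.59 (SE 0.35, edgeR adjusted p = 0.000328) and *Havcr2* of 2.95 (SE 0.29, edgeR adjusted p = 0.000321). *Pdcd1lg2* followed with 2.61 (SE 0.52, edgeR adjusted p = 0.00657) and *Cd274* with 2.27 (SE 0.58, edgeR adjusted p = 0.0294). The *Cd274* call was lost without library 5, 6 or 9, at an edgeR adjusted p of 0.186, 0.0892 or 0.0932, without the filter on low counts (0.129), and without libraries 5 and 7 together (0.274). *Pdcd1lg2* was at 0.0584 without libraries 5 and 7. On quantile-normalized TPM, edgeR's exact test called *Cd274* but not *Cd40* or *Havcr2*, at adjusted p of 3.82e-05, 0.159 and 0.0695. The median of the 10 genes was 0.77, and that of all genes 0.03.

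Another 3 inhibitory or costimulatory ligands were lower in SP Gr-1hi cells by less than the FC threshold, among 13.9% of all genes that were lower at the same adjusted p and any FC. *Vsir* had a log2 FC of -0.65 (SE 0.12, edgeR adjusted p = 0.00526), *Lgals9* of -0.43 (SE 0.08, edgeR adjusted p = 0.00633) and *Icosl* of -0.35 (SE 0.09, edgeR adjusted p = 0.0205). *Cd276* (1.15, edgeR adjusted p = 0.136), *Cd86* (0.40, 0.113) and *Cd80* (0.17, 0.534) did not pass.

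**Figure D3:**
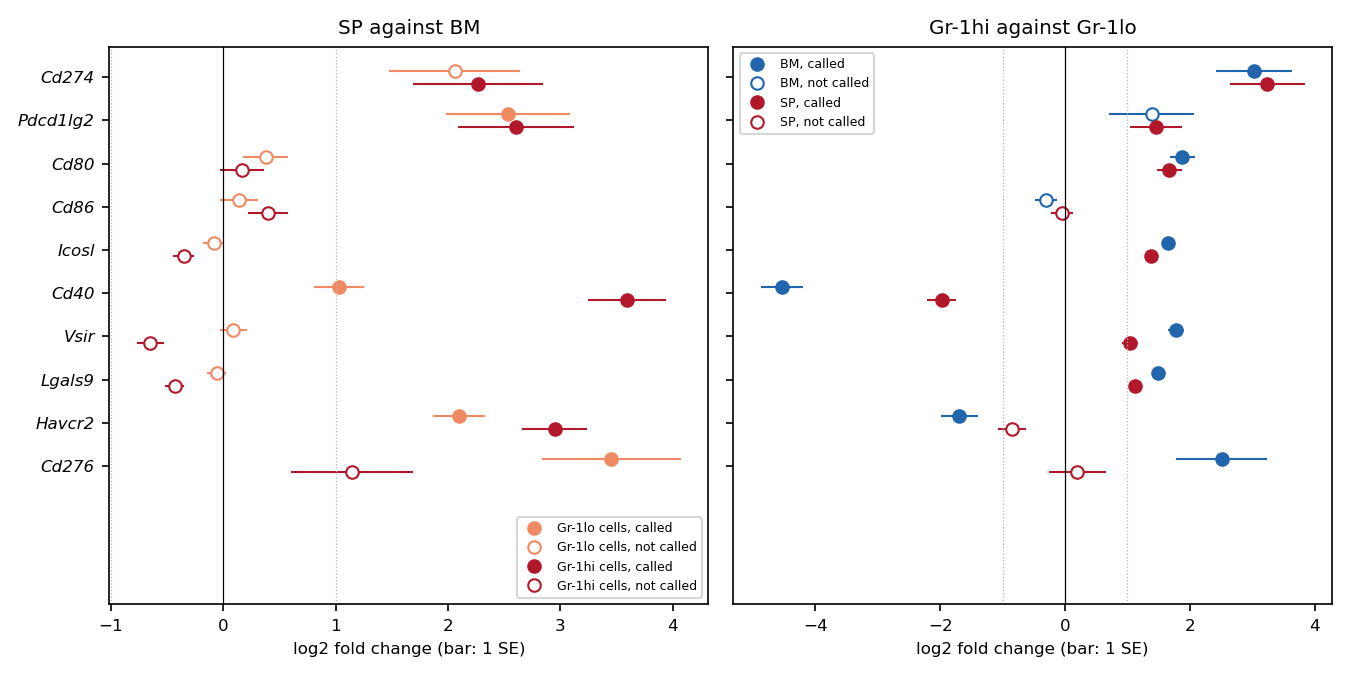
Log2 FC with bars of 1 SE for SP against BM (left) and Gr-1hi against Gr-1lo (right). Filled points passed both thresholds, and dotted lines mark an FC of 2. *Cd40* is higher in SP in both subsets and lower in Gr-1hi cells in both tissues, whereas *Vsir*, *Lgals9* and *Icosl* lie near or below 0 between tissues and above 1 between subsets.

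Markers of lymphocytes moved with these differences. In bulk RNA, fewer cells of a type and less RNA per cell cannot be told apart. B cell markers, 10 genes, summed to 385 to 559 CPM in SP Gr-1hi, 71.9 to 90.5 in SP Gr-1lo, 27.2 to 29.9 in BM Gr-1hi and 11.7 to 12.4 in BM Gr-1lo, and 10 of them were called higher in SP in Gr-1hi and 9 in Gr-1lo. T cell markers, also 10 genes, summed to 82.2 to 138, 28.2 to 41.3, 7.47 to 10.6 and 2.44 to 2.76 CPM in the same order. Of the T cell markers 9 were called higher in SP in Gr-1hi and 10 in Gr-1lo, of 8 dendritic cell markers 4 and 3, and of 10 splenic macrophage markers 6 and 5. The dendritic cell marker *Siglech* was called lower in SP Gr-1hi (log2 FC -1.59, edgeR adjusted p = 0.0239). The dendritic cell markers summed to 30.3 to 36.6, 17.1 to 28.2, 6.65 to 6.92 and 5.55 to 8.32 CPM, with *Ccr7* at 0 in BM Gr-1lo, and those of splenic macrophages to 134 to 136, 101 to 107, 49.1 to 65.8 and 63.1 to 79.0 CPM, with *Marco* at 0 in BM Gr-1lo. Their part in the SP values of *Cd40*, *Havcr2*, *Pdcd1lg2*, *Cd274* and *Cd276* was not tested. In mean CPM, *Pdcd1lg2* and *Cd276* had the same order of the 4 groups as the B and T cell sums, *Cd274* also was highest in SP Gr-1hi, and *Cd40* and *Havcr2* were highest in SP Gr-1lo.

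**Figure D4:**
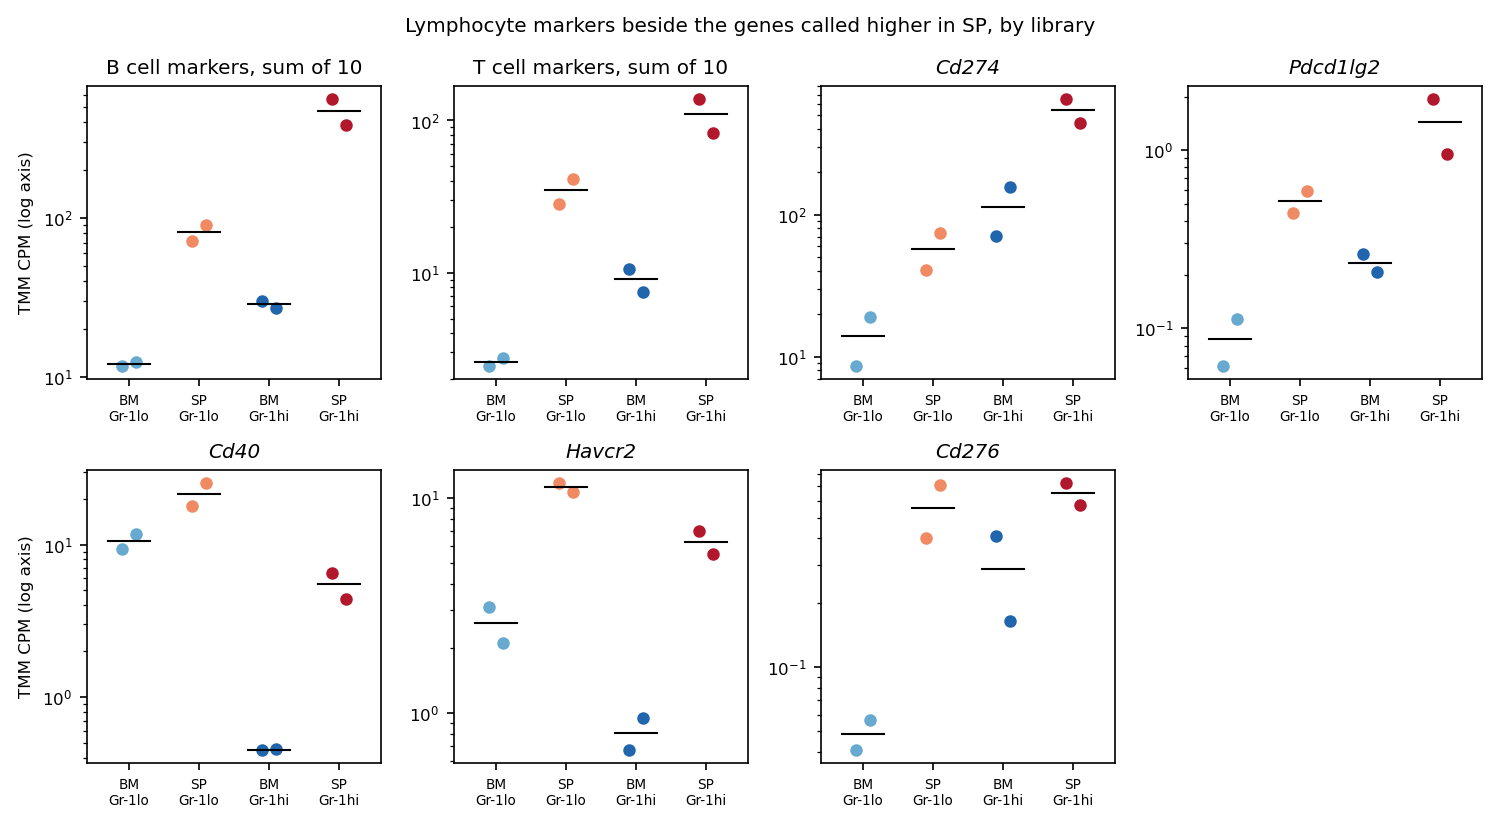
Summed CPM of 10 B cell and 10 T cell markers beside the CPM of the 5 genes called higher in SP in either subset, on log axes, with 1 point per library and a bar at the group mean. The means of the marker sums, *Cd274*, *Pdcd1lg2* and *Cd276* are highest in SP Gr-1hi, and those of *Cd40* and *Havcr2* in SP Gr-1lo.

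The second question was how the subsets differ within a tissue. In BM, 6 of the 10 genes were higher and 2 lower in Gr-1hi than in Gr-1lo cells, where 57.3% of all genes were called, 24.2% as higher and 33.1% as lower. In SP, 6 were higher and 1 lower, where 49.6% were called, 22.3% as higher and 27.4% as lower. The median log2 FC of the 10 genes was 1.57 in BM and 1.08 in SP, against -0.17 and -0.09 for all genes. Scaling by RLE raised the median of all genes by 0.15 in BM and 0.13 in SP.

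The ligands *Cd274*, *Cd80*, *Icosl*, *Lgals9* and *Vsir* were higher in Gr-1hi cells of both tissues. *Cd274* had a log2 FC of 3.03 (SE 0.60, edgeR adjusted p = 0.00441) in BM and 3.24 (SE 0.60, edgeR adjusted p = 0.00349) in SP. Without libraries 5 and 7 these were 2.97 and 2.54, at edgeR adjusted p of 0.0541 and 0.152. *Icosl* gave 1.65 (SE 0.10) and 1.38 (SE 0.09), at edgeR adjusted p of 8.58e-07 and 3.93e-06, and *Cd80* gave 1.88 (SE 0.21) and 1.67 (SE 0.20), at 3.69e-05 and 8.51e-05. *Vsir* was at 1.78 (SE 0.13, edgeR adjusted p = 2.43e-06) in BM and 1.04 (SE 0.12, edgeR adjusted p = 7.86e-05) in SP. *Lgals9* was at 1.49 (SE 0.09, edgeR adjusted p = 8.54e-07) and 1.12 (SE 0.09, edgeR adjusted p = 6.61e-06). The SP values of *Vsir* and *Lgals9* fell under an FC of 2 without the filter, at 0.91 and 0.99, and that of *Vsir* also without library 6 (0.85) or 8 (0.96).

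*Cd40* was lower in Gr-1hi cells, by a log2 FC of -4.54 (SE 0.34, edgeR adjusted p = 3.22e-06) in BM and -1.98 (SE 0.24, edgeR adjusted p = 8.57e-05) in SP. *Havcr2* was lower in BM, at -1.69 (SE 0.29, edgeR adjusted p = 0.000714), and in SP its -0.84 (SE 0.22, edgeR adjusted p = 0.00809) missed the FC threshold. The scarce genes differed by tissue in their calls. *Cd276* was called in BM only, at 2.51 (SE 0.73, edgeR adjusted p = 0.0127) against 0.20 in SP (edgeR adjusted p = 0.711), and its BM call was lost without library 9 (edgeR adjusted p = 0.137) or 11 (0.0605). *Pdcd1lg2* was called in SP only, at 1.46 (SE 0.42, edgeR adjusted p = 0.0125) against 1.39 in BM (edgeR adjusted p = 0.0944), and its SP call was lost without library 5 (0.153), 7 (0.0763) or both (0.354, with a log2 FC of 0.67). *Cd86* did not pass in either tissue, at -0.31 in BM (edgeR adjusted p = 0.140) and -0.05 in SP (edgeR adjusted p = 0.804).

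Whether the difference between subsets was the same in both tissues was tested as an interaction, the Gr-1hi against Gr-1lo log2 FC in SP minus that in BM. Of all genes, 9.74% were called, 7.74% with a positive difference, and of the 10 genes 1 was called. *Cd40* had an interaction of 2.56 (SE 0.43, edgeR adjusted p = 0.00820), since its gap between subsets was narrower in SP. *Vsir* had -0.74 (SE 0.17, edgeR adjusted p = 0.0244), under the FC threshold, where 6.08% of all genes were negative at that adjusted p with any FC. *Lgals9* (-0.37, edgeR adjusted p = 0.0686) and *Cd276* (-2.31, edgeR adjusted p = 0.104) did not pass, nor did *Pdcd1lg2* (edgeR adjusted p = 0.976), so the differing calls of *Cd276* and *Pdcd1lg2* were not shown to differ between the tissues.

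*Cd274* varied within groups along with a gene of the interferon pathway. In CPM, *Irf1*, a transcription factor induced by interferon, was read at 1271 and 1058 in SP Gr-1hi, 274 and 359 in SP Gr-1lo, 477 and 781 in BM Gr-1hi, and 203 and 330 in BM Gr-1lo. In each group the library with more *Cd274* was also the one with more *Irf1*. Of 13 regulators of PD-L1 and CD86, 0 were called between SP and BM in either subset by edgeR or DESeq2. At an unadjusted edgeR p of at most 0.05, 3 were higher and 0 lower in SP Gr-1lo cells, and 6 higher and 2 lower in SP Gr-1hi cells. Of all 17650 genes tested, 3545 and 8015 passed that p in either direction. Between subsets 5 of the 13 regulators were higher and 1 lower in Gr-1hi cells in each tissue. *Irf1* was among those higher in Gr-1hi cells, by 1.24 (SE 0.30, edgeR adjusted p = 0.00688) in BM and 1.88 (SE 0.31, edgeR adjusted p = 0.000998) in SP. Of all genes, 57.3% were called between subsets in BM and 49.6% in SP.

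**Figure D5:**
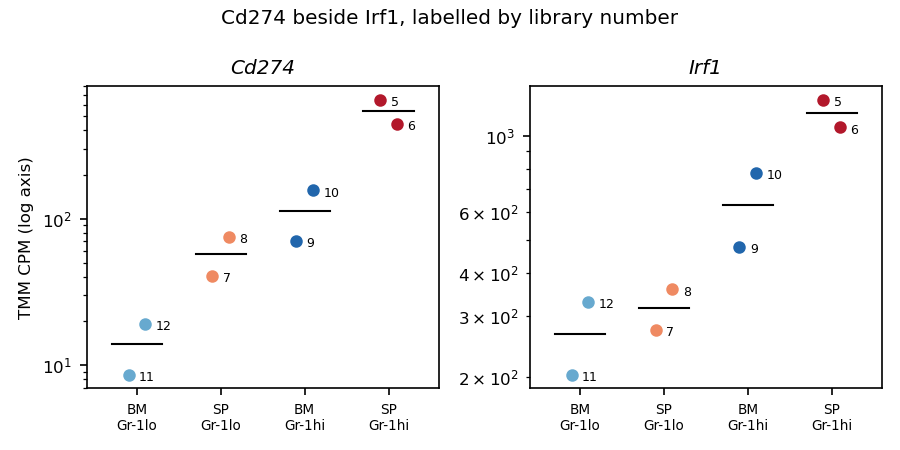
CPM of *Cd274* and *Irf1* on log axes, with the library number beside each point and a bar at the group mean. Library 10 lies above 9, 12 above 11, 8 above 7 and 5 above 6 for both genes.

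Of 24 other costimulatory or inhibitory ligands, 16 passed the filter, and 2 were higher in SP Gr-1lo cells and 7 in SP Gr-1hi cells, with 0 lower in either. By DESeq2 3 and 7 were higher and 0 lower. On quantile-normalized TPM, edgeR's exact test took 12 of the 16 and called 1 and 2 higher and 0 lower. At an unadjusted p of at most 0.05 in the quasi-likelihood test of edgeR, 2 of the 16 were lower in each subset. *Icam1*, the adhesion ligand of LFA-1, was higher in both, by a log2 FC of 1.11 (SE 0.19, edgeR adjusted p = 0.0134) and 3.24 (SE 0.22, edgeR adjusted p = 0.000107). *Tnfsf8*, the ligand of CD30, was higher in SP Gr-1hi by 5.45 (SE 0.59, edgeR adjusted p = 0.000461), from 232 counts against 4, and *Cd200* by 4.43 (SE 0.60, edgeR adjusted p = 0.00127). Mean levels of *Tnfsf8* and *Cd200* were highest in SP Gr-1hi, at 3.56 and 2.17 CPM, as were the B and T cell sums. The part of lymphocytes in these values was not tested. Between subsets, 5 were higher and 7 lower in BM Gr-1hi, and 6 higher and 4 lower in SP Gr-1hi. Of all genes, 57.3% and 49.6% were called between subsets in BM and SP. Between tissues, 3.84% were called higher in SP Gr-1lo and 14.0% in SP Gr-1hi.

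The receptors on T cells that these ligands meet were read in the same libraries. Of 16, 11 were higher in SP Gr-1lo and 13 in SP Gr-1hi, with 0 lower, by edgeR and by DESeq2. Of all genes, 3.84% and 14.0% were called higher by edgeR. On quantile-normalized TPM, edgeR's exact test took 9 of the 16 and called 0 higher in Gr-1lo and 4 in Gr-1hi cells, with 0 lower. At an unadjusted p of at most 0.05 in the quasi-likelihood test of edgeR, 1 of the 16 was lower in Gr-1lo and 0 in Gr-1hi cells. *Icos*, the partner of ICOSL, was higher in SP by 4.20 (SE 0.47, edgeR adjusted p = 0.00158) in Gr-1lo and 5.43 (SE 0.47, edgeR adjusted p = 0.000226) in Gr-1hi cells, from 9 and 8 counts in BM. *Cd28* was higher by 1.51 (SE 0.36, edgeR adjusted p = 0.0480) and 3.60 (SE 0.40, edgeR adjusted p = 0.000554). *Cd40lg*, the ligand of CD40, had 52 and 30 counts in SP Gr-1hi, 11 and 24 in SP Gr-1lo and 0 in each BM library. In Gr-1lo cells *Btla* did not follow the T cell sums, with means of 45.7 CPM in BM and 33.0 CPM in SP (log2 FC -0.47, edgeR adjusted p = 0.0629). *Tnfrsf4* and *Selplg* had -0.0011 and -0.17 there. In Gr-1hi cells *Btla* was higher in SP, with means of 34.3 against 1.98 CPM (log2 FC 4.11, edgeR adjusted p = 3.50e-05). There *Tnfrsf4* and *Selplg* had 0.91 and 0.46, under the FC threshold. The part of T cells in the receptor values was not tested.

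For each gene, the 2 others with the closest profile were sought as the smallest root mean square difference of centred log2(CPM + 1) over 8 libraries. *Slc9a3r1* lay 0.0498 from *Icosl*, *Trip4* 0.0499 from *Vsir* and *Gm7598* 0.0572 from *Lgals9*, followed by *Bcl10* at 0.0575. *Mink1* lay 0.184 from *Cd40*, *Zfp366* 0.238 from *Havcr2* and *Acss2* 0.140 from *Cd80*. The closest profile to *Cd274*, that of *Ppp1r16b*, was 0.496 away. For the scarce *Pdcd1lg2* and *Cd276* and the nearly level *Cd86* the measure is small for any gene that varies little on this scale.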

How the data were processed

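RNA-seq of 8 libraries in 4 groups was analysed from 1 table of counts per gene, which the authors deposited without normalization. The submitters' processing notes name FastQC, STAR and featureCounts, with GRCm38 and mm10 as builds. A TruSeq Stranded kit was used and the labels call the counts stranded, but the counter's strand setting is not given in the sources used here. Groups were taken from the labels. The 10 genes and all lists were chosen with earlier results of these data known.

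The quasi-likelihood test of edgeR 4.0.16 (R 4.3.3) was run on the counts after filterByExpr, which kept 17650 genes, and TMM scaling. All 8 libraries entered 1 robust fit of the group means, at 4 residual degrees of freedom. Adjustment was by Benjamini-Hochberg over the genes tested, and p-values measure the spread between these libraries. Calls needed adjusted p ≤ 0.05 with FC ≥ 2. SE is the log2 FC divided by the root of F. TPM used exon lengths of GENCODE M21, which holds 53947 of the 54188 genes, so 241 have none. The model was also run on simulated counts with the spread estimated here and few changed genes. That setting differs from these data, so the run does not bear on the calls above.

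Alternatives were RLE and upper-quartile scaling, DESeq2 1.42.0, no filter, a fit of only the libraries compared, edgeR's exact test on quantile-normalized TPM, the study's stricter thresholds between subsets (adjusted p below 0.01, FC above 8), leaving out each library, and leaving out libraries 5 and 7. All 10 genes were named in each comparison. From other lists, the most changed called genes with at least 1 CPM and direct partners of the 10 genes were named in part.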

Additional observations from a re-analysis of the deposited data

Results flagged for a closer look

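The gap between Gr-1hi and Gr-1lo cells differed between SP and BM for *Cd40* and, under the FC threshold, for *Vsir*. The limit was an adjusted p of 0.05 in the interaction test of edgeR with Benjamini-Hochberg adjustment. For this limit without an FC threshold, the share of all genes is given below for negative values only, so no count at it is set against all genes. With the FC threshold of 2 only *Cd40* was left, 1 of the 10 genes, beside 9.74% of all genes. At an unadjusted edgeR p of at most 0.05, 4 of the 10 genes passed, and 5703 of all 17650. Whether the 10 genes differed more often than other genes was not tested. For *Cd40* the difference of the log2 FC values was 2.56 (SE 0.43, adjusted p = 0.00820), the gap being -4.54 in BM and -1.98 in SP. The BM Gr-1hi mean rested on 23 counts over 2 libraries. For *Vsir* it was -0.74 (SE 0.17, adjusted p = 0.0244), with 1.78 in BM and 1.04 in SP, under the FC threshold, where 6.08% of all genes were negative at that adjusted p. No outlier could be sought with 2 libraries per group.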

How the results depend on the processing

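No paired analysis was possible because the groups share no replicate number. Of the values of single genes under the alternatives, 651 kept their direction and side of the thresholds, 40 lost a call, 4 gained one and 25 changed sign, all 25 for values that were not called. Of the 10 genes, 4 called in SP against BM in Gr-1lo cells became 1 by the exact test on quantile-normalized TPM and 1 to 4 without single libraries, and in Gr-1hi cells 4 became 1, 3 to 4, and 2 without libraries 5 and 7. *Pdcd1lg2* and *Cd276* did not enter that exact test, whose filter asks for a TPM sum of 10. Between subsets the stricter thresholds left 2 in BM and 1 in SP, the exact test left 4 in SP, and the interaction gave 1 to 2 without single libraries. Over all genes, Gr-1lo cells had 716 called against 1077 without the filter, 273 by the exact test and 389 to 785 without single libraries. Gr-1hi cells had 2727 against 688, 1715 to 3518, and 1617 without libraries 5 and 7. Between subsets 10109 became 5679 by the exact test and 2946 by the stricter thresholds in BM, and 8761 became 4602 and 1301 in SP. The interaction had 1719 against 915 to 2488 without single libraries and 819 without libraries 5 and 7. The causes were not tested.

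Changes of sign were as follows. The log2 FC of *Cd86* between tissues in Gr-1lo cells was -0.072 to 0.33 without single libraries, and that of *Cd80* in Gr-1hi cells -0.17 to 0.38. Between subsets *Cd86* was at 0.054 by the exact test in BM, and in SP at 0.086 with RLE scaling, 0.036 with upper-quartile scaling, 0.087 by DESeq2, 0.18 by the exact test and -0.28 to 0.15 without single libraries. *Cd276* in SP was at -0.15 to 0.67 without single libraries and -0.32 without libraries 5 and 7. In the interaction, single libraries left out gave -0.48 to 0.78 for *Cd274*, -0.62 to 0.43 for *Pdcd1lg2* and -0.045 to 0.47 for *Cd86*, and leaving out libraries 5 and 7 gave -0.43, -0.67 and -0.10. A library left alone in its group was assumed to vary like the other groups. Depth limits *Pdcd1lg2* and *Cd276* most, with 2 to 64 counts per library.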
